A study of Mus musculus with 12 samples.

Results

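The 28 genes described here make, move and regulate cholesterol, and were taken by name from the deposited count table of 46882 gene names. All 28 had a row, and all 28 were among the 13706 genes abundant enough to be tested. They comprise 17 enzymes of cholesterol synthesis, 2 enzymes beside that route (Acat2 and Ggps1), 4 regulators of the transcription factor SREBP2 or the factor itself, and 5 genes of cholesterol transport, uptake and storage. RNA came from flash-frozen liver of 6 A1cf -/- mice (KO) and 6 wild-type mice (WT). Both genotypes were of the C57BL/6 strain and 6 to 8 weeks old. No treatment is given for either. The missing protein, A1CF, binds RNA in hepatocytes and is known for assisting the deaminase APOBEC1 when it edits Apob transcripts. Each library is named by its genotype and the number in its title. The design text calls the 6 samples of a genotype biological replicates. Feeding state and time of day at collection are not given in the sources used here.

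Hepatocytes build cholesterol from acetyl-CoA by way of mevalonate, isoprenoid diphosphates, squalene and lanosterol. The enzymes of this route are known as shared targets of SREBP2, a membrane-bound factor that SCAP escorts out of the endoplasmic reticulum when sterols are scarce and that INSIG proteins hold there when sterols are plentiful. Released SREBP2 also acts on its own gene and on INSIG1, so that supply and demand are linked by feedback, while INSIG2 of mouse liver is known to be higher in fasting and lower after insulin.

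Total counts lay between 22129092 and 51082317 in KO libraries and between 25898171 and 40597491 in WT libraries. The targeted transcript followed the labels, with A1cf at 8.20 to 12.6 CPM (library-scaled counts, normalised by the TMM method) in KO livers and 47.9 to 53.8 CPM in WT livers. Of all tested genes, 523 passed an adjusted p of 0.05 between the genotypes. In summed CPM, the 8 Kupffer cell and macrophage markers lay at 107 to 372 in KO livers and 103 to 172 in WT livers, and all 8 had a log2 change above 0. By edgeR 0 of them passed, with 7 at an unadjusted p under 0.05, while DESeq2 called 3. Over all tested genes 21.2% had an unadjusted edgeR p under 0.05, and DESeq2 called 8.55%. All 6 stellate cell markers also had a log2 change above 0 and 2 of them rose, with sums of 199 to 300 CPM in KO livers and 132 to 240 CPM in WT livers. All 6 sinusoidal endothelium markers were above 0 and 1 rose, with sums of 153 to 175 CPM in KO livers and 89.3 to 180 CPM in WT livers. The part of these cells in the differences between genotypes was not tested. The 8 hepatocyte markers summed to 79827 to 99360 CPM in KO livers and 87401 to 109074 CPM in WT livers. In whole liver, fewer cells of a type and less RNA per cell cannot be told apart. The 28 genes are shown first by library, in the heat map of all 12 livers.

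**Figure D1:**
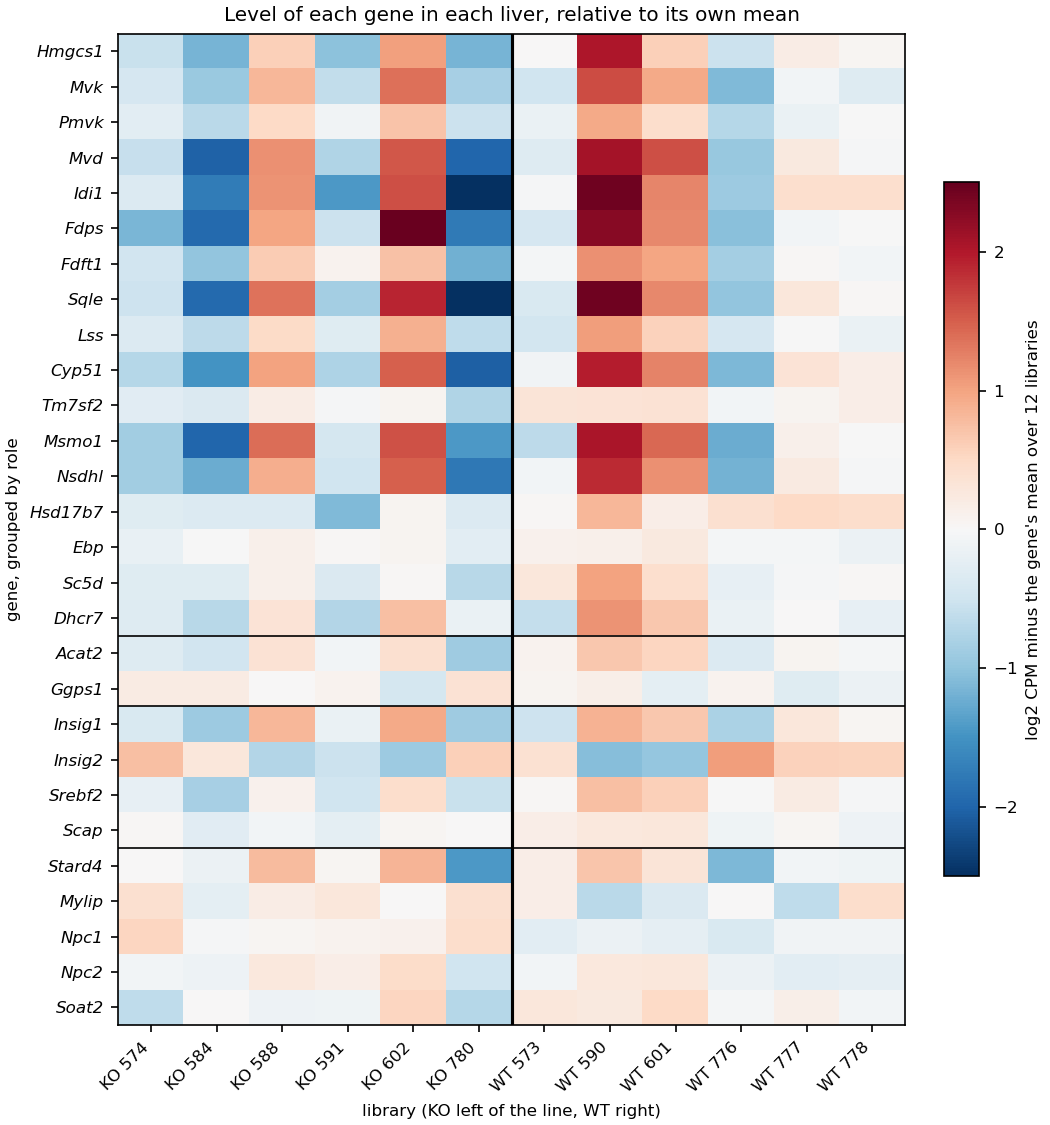
Each cell is a gene's log2 CPM in 1 library minus that gene's mean over the 12 libraries, with KO libraries left and WT libraries right of the line; the deepest colours also hold values beyond the ends of the scale. Columns KO 588, KO 602, WT 590 and WT 601 are red over most synthesis enzymes and blue for Insig2, and columns KO 584, KO 780 and WT 776 show the opposite.

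The first enzyme of the route among these genes is Hmgcs1, the cytosolic HMG-CoA synthase (chromosome 13, 119690462 to 119708086, plus strand, mm10). Hmgcs1 stood at 35.7, 35.7, 39.2, 54.5, 122 and 162 CPM in KO livers 584, 780, 591, 574, 588 and 602. In WT livers 776, 573, 778, 777, 601 and 590 it stood at 55.0, 80.7, 83.3, 90.9, 121 and 324 CPM. In KO, 4 livers lay below every WT liver, but KO 588 and KO 602 lay above all WT livers except WT 590, so the groups overlapped. Hmgcs1 differed by a log2 change of -0.75 with a standard error of 0.53, and it did not pass (adjusted p = 0.46 by the quasi-likelihood test of edgeR, with Benjamini-Hochberg adjustment over 13706 genes). A spread of this kind recurred down the pathway, and it is described before the genotype difference.

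Squalene epoxidase (Sqle), which makes the first oxygenated sterol precursor, had the largest pooled standard deviation of log2 CPM within genotypes among the 28 genes. It ran from 3.24 CPM in KO 780 to 68.7 CPM in KO 602, with a KO median of 11.5 CPM. In WT livers it ran from 9.34 CPM in WT 776 to 99.2 CPM in WT 590, with a median of 20.5 CPM. The same 4 livers, KO 602, KO 588, WT 590 and WT 601, were the highest of their genotype, and the groups overlapped widely. The pooled standard deviation of Sqle within genotypes was 1.504 on the log2 scale, and 0.292% of tested genes had a larger one.

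**Figure D2:**
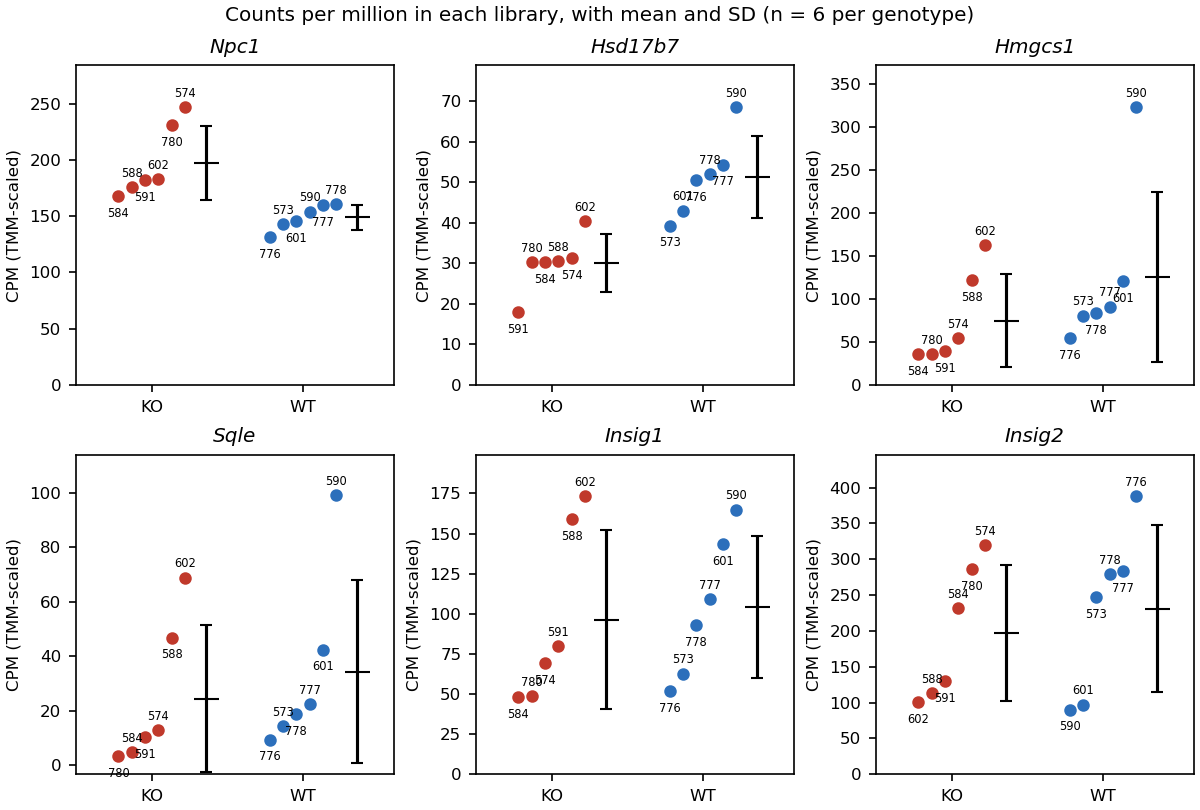
Points are TMM-scaled CPM of 1 library each for 6 genes, numbered by library, with the mean and SD of the 6 libraries of each genotype beside them. Npc1 separates the genotypes, Hsd17b7 does so except that KO 602 lies above WT 573, and the other 4 genes overlap.

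The other enzymes divided by how widely they spread. Pooled standard deviations on the log2 scale were 1.47 for Fdps (farnesyl diphosphate synthase), 1.43 for Idi1 (isopentenyl diphosphate isomerase), 1.36 for Msmo1 (methylsterol monooxygenase), 1.33 for Mvd (mevalonate diphosphate decarboxylase), 1.24 for Cyp51 (lanosterol demethylase) and 1.17 for Nsdhl (a sterol C4-decarboxylating dehydrogenase). Mvk (mevalonate kinase) had 0.98 and Hmgcs1 0.92. At the narrow end were Ebp (sterol isomerase) with 0.15, Tm7sf2 (a sterol C14-reductase) with 0.27, Hsd17b7 (a 3-ketosterol reductase) with 0.33 and Sc5d (sterol C5-desaturase) with 0.37. The median over the 17 synthesis enzymes was 0.92, against 0.24 over all tested genes. Low counts were part of the range at its lower end, since Idi1 and Mvd had as few as 22 counts in a library.

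Per kilobase of exon, which allows levels of different genes to be set side by side, most of the narrow genes were not the rare ones. Sc5d stood at 79.3 CPM per kilobase and Ebp at 72.2, above Hmgcs1 at 31.0, Fdft1 (squalene synthase) at 27.5 and Tm7sf2 at 20.2. The lowest were Fdps at 2.34, Lss (lanosterol synthase) at 2.45 and Idi1 at 2.81 CPM per kilobase. These levels use the total exonic length of all transcripts in the table. For some genes exons are shared with a neighbour, and reads over several genes were not counted. Fdps shares 26.7% of its exonic bases with Gm43738 and Fdft1 26.8% with Ctsb, so their levels are uncertain. Tm7sf2 shares 15.3% with Vps51, Scap 13.2% with 5830462I19Rik, and Ggps1, Cyp51, Lss and Npc1 at most 7.18%.

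How far the other genes moved with Hmgcs1 was measured as the Pearson correlation of log2 CPM over the 12 libraries after subtracting each genotype's mean. Every one of 13705 other genes was tested in this way by 100000 permutations within genotypes. Of the 27 other members, 14 passed with a positive correlation and 0 with a negative one (Benjamini-Hochberg adjusted p under 0.05 over all 13705 genes). Over all genes the share was 0.817% positive and 0.379% negative, or 112 and 52 genes. The balance over all genes turned with library totals as the only scaling (124 positive and 371 negative genes, with 16 and 0 members), and with Sqle in place of Hmgcs1 it was 400 positive and 217 negative genes (18 and 1 members). The correlation was above 0 for 23 of the 27 members, and its median was 0.89, against -0.02 over all genes.

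Among synthesis enzymes 11 of 16 passed. Mvk had the largest correlation of any tested gene, at r = 0.97 (Spearman's rho 0.99, permutation adjusted p = 0.023). It ran from 4.71 to 23.0 CPM in KO livers and from 4.16 to 27.7 CPM in WT livers, with KO 584 and WT 776 lowest and KO 602 and WT 590 highest. Sqle, Lss and Idi1 each had r = 0.96, Cyp51, Pmvk (phosphomevalonate kinase), Fdps and Nsdhl 0.95, Mvd 0.94, Msmo1 0.93 and Sc5d 0.89. The slope against Hmgcs1 on the log2 scale was 1.57 for Sqle, 1.52 for Fdps and 1.49 for Idi1, and 0.58 for Pmvk and 0.36 for Sc5d, so enzymes with similar correlations moved by different amounts.

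The other 5 synthesis enzymes did not pass. Dhcr7 (the last reductase of the route, r = 0.89) and Fdft1 (r = 0.87) missed narrowly, with a permutation adjusted p of 0.0502 each. Tm7sf2 (0.69), Hsd17b7 (0.60) and Ebp (0.57) had adjusted permutation p-values of 0.171, 0.259 and 0.298. Of the 2 genes beside the route, Acat2, the cytosolic thiolase that makes acetoacetyl-CoA, passed with r = 0.88, and Ggps1, which makes geranylgeranyl diphosphate, had r = -0.43. Acat2 has a near-identical neighbouring copy, Acat3, so its counts are uncertain.

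The regulators fell on both sides. Srebf2, which encodes SREBP2, passed with r = 0.93 (adjusted p = 0.029 by permutation), although its slope was 0.41. Insig1 passed with r = 0.90 and a slope of 0.73. It stood at 47.9 to 173 CPM in KO livers, with a median of 74.6, and at 51.6 to 165 CPM in WT livers, with a median of 101. The escort Scap varied little, with a pooled standard deviation of 0.16, and had r = 0.62.

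Insig2 ran the other way. It stood at 101, 113, 130, 231, 286 and 319 CPM in KO livers 602, 588, 591, 584, 780 and 574. In WT livers 590, 601, 573, 778, 777 and 776 it stood at 90.1, 96.9, 247, 279, 283 and 388 CPM. The libraries fell into separate sets in both genotypes, with KO 602, KO 588, KO 591, WT 590 and WT 601 at 90.1 to 130 CPM and the other 7 at 231 to 388 CPM, so no correlation over all 12 is given. Over the 9 libraries with the lower Hmgcs1 levels, the correlation of Insig2 with Hmgcs1 was -0.52 (exact permutation p = 0.22, two-sided, unadjusted).

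**Figure D3:**
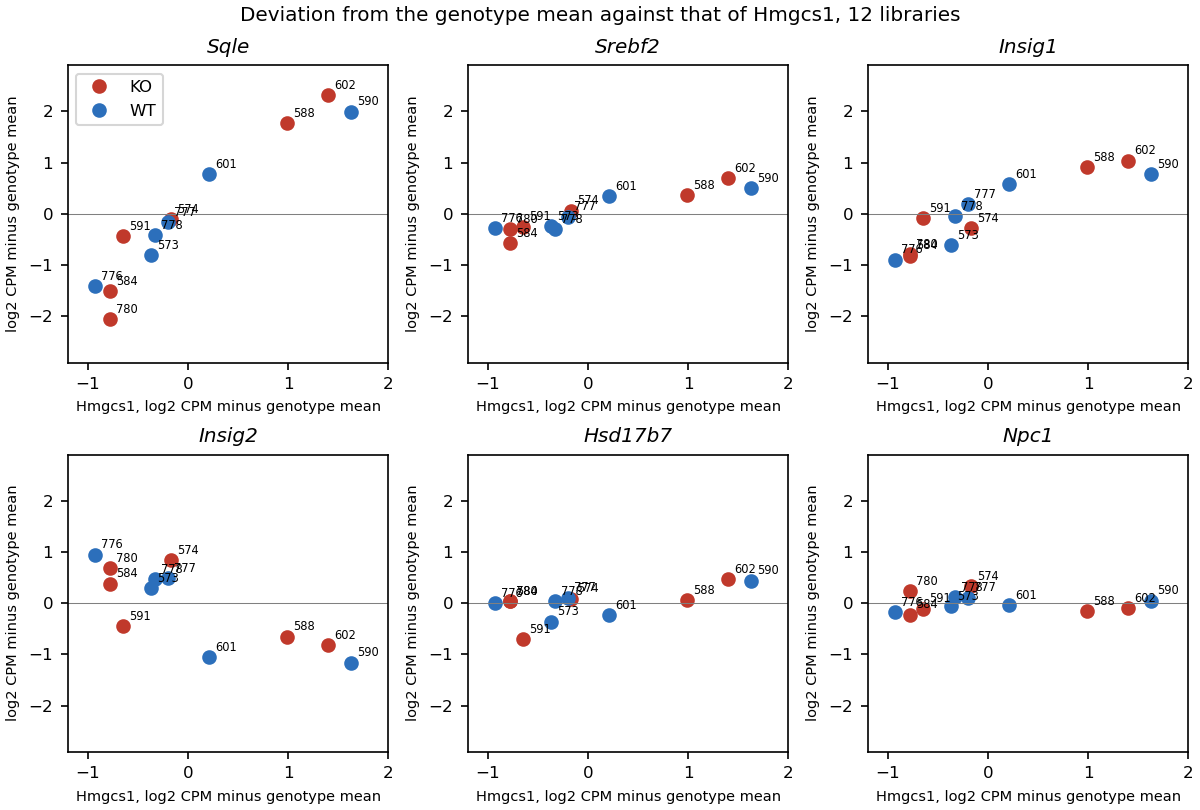
Each point is 1 library, placed by its deviation from its genotype's mean log2 CPM for Hmgcs1 (horizontal) and for the gene named above the panel (vertical), with KO in red and WT in blue. Sqle, Srebf2 and Insig1 climb with Hmgcs1 at different slopes, Insig2 lies low in KO 588, 591 and 602 and WT 590 and 601, and Hsd17b7 and Npc1 stay near 0 in most libraries.

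Of the 5 transport genes 0 passed, and 2 had an unadjusted permutation p under 0.05 (2724 of all 13705 genes did). Stard4, which carries sterol between membranes, had r = 0.81 and Npc2, which hands cholesterol to NPC1 inside lysosomes, had 0.76, with adjusted permutation p-values of 0.097 and 0.094. With Sqle in place of Hmgcs1 both passed (0.88 and 0.86, adjusted permutation p of 0.030 and 0.041). Soat2, which esterifies cholesterol for storage and lipoproteins, had r = 0.54. Mylip, a ubiquitin ligase that marks lipoprotein receptors for degradation, had -0.42, and Npc1 had -0.05.

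The correlations leaned on few libraries to different degrees. Deviations of Hmgcs1 had a gap between 0.20 in WT 601 and 0.99 in KO 588. Without WT 590 and KO 602, the libraries farthest from the median, r with Hmgcs1 was 0.95 for Idi1, 0.95 for Cyp51, 0.94 for Sqle, 0.93 for Mvk, 0.90 for Insig1 and 0.87 for Srebf2, but 0.15 for Hsd17b7. Over the 9 libraries below the gap it was 0.92 for Mvk and Cyp51, 0.91 for Idi1 and Mvd, 0.89 for Sqle and 0.83 for Insig1 and Srebf2, but 0.54 for Dhcr7, -0.05 for Hsd17b7 and 0.50 for Npc1. The count of 14 was less steady than the correlations when single libraries were left out. It was 16 without KO 591, 12 without KO 574 and 11 without WT 573. It was 0 without WT 776, KO 588, KO 602 or KO 780, 2 without WT 601, 5 without KO 584, 6 without WT 590 or WT 777 and 7 without WT 778. The positive count over all genes moved broadly alike. It was 326 without KO 591, 132 without KO 574 and 50 without WT 573. Without WT 776, KO 588, KO 602 or KO 780 it was also 0. It was 5 without WT 601, 9 without KO 584, 19 without WT 590, 26 without WT 777 and 23 without WT 778. Across these fits the r of Mvk stayed between 0.96 and 0.99 and that of Sqle between 0.94 and 0.97.

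Outside the 28 genes, those whose levels were closest to Hmgcs1 were named by the same measure. Among them were Ctso (r = 0.95), Asah1 (0.95), Aldoc (0.93), Asph (0.92), Mgam (0.92), Cfb (0.92) and Cetn2 (0.92). The most negative were Nadk (r = -0.93), Hspd1 (-0.92) and Hsp90aa1 (-0.92). Each of these genes passed the permutation test, which used the correlation they were chosen by and so is no separate support. Of 9 further sterol-linked genes tested, 3 passed with a positive correlation, among them Tmem97 (r = 0.87) and Mmab (0.91). Over all genes 0.817% did. In this list 8 correlations were above 0, and the lowest was -0.36. Of the 10 genes of sterol sensing and SREBP processing, the 14 of export, uptake and storage, and the 8 of the isoprenoid branch, 0 passed, with 2, 3 and 1 at an unadjusted permutation p under 0.05. Over all genes 2724 of 13705 had such a p, so these counts are near the share over all genes. The largest correlation among the sensing genes was that of Srebf1 (0.77), which encodes the sister factor SREBP1.

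Other genes moved with the livers that were high in synthesis enzymes. For the 9 acute phase genes, which hepatocytes raise in inflammation, the mean log2 CPM within a library is given relative to its genotype's mean. It was 3.60 in KO 602, 1.19 in KO 588 and 0.42 in KO 591, and between -1.88 and -1.56 in the other KO livers. In WT livers it was 3.27 in WT 590 and 2.64 in WT 601, and between -1.79 and -0.76 in the others. These 5 livers are also those with the lowest Insig2. For the 17 synthesis enzymes the same quantity was 1.32 in KO 602, 0.94 in KO 588, 1.21 in WT 590 and 0.57 in WT 601, and below 0 in the other 8 libraries. In KO 591, with acute phase genes above and synthesis enzymes below their mean, it was -0.28.

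The 9 fasting genes, among them Pck1 and Pdk4, ran against the synthesis enzymes in most livers. In KO 591 and WT 573 both lists were below the genotype's mean (fasting genes -0.56 and -0.25, synthesis enzymes -0.28 and -0.45). The fasting genes were highest in KO 780 (0.89) and WT 776 (0.94), the lowest livers of each genotype for synthesis enzymes (-0.94 and -0.92). They were lowest in KO 591 (-0.56), KO 602 (-0.54) and WT 590 (-1.25). All 9 had a negative correlation with Hmgcs1, with a median of -0.70. None passed, and 5 had an unadjusted permutation p under 0.05 (2724 of all 13705 genes did). All 9 acute phase genes had a positive correlation with Hmgcs1, with a median of 0.81. Of them 1 passed and 8 had an unadjusted permutation p under 0.05, over libraries that fell into high and low sets for the acute phase list. The 8 Kupffer cell and macrophage markers, whose correlations were all positive with a median of 0.54 and none passed, were also highest in KO 602 (0.70). Within KO livers alone their correlations were 0.70 (Marco) to 0.85 (C1qa). Within WT livers alone they ran from -0.66 (Clec4f) to 0.69 (Marco). Of 7 tested fed-state genes 5 had a positive correlation with Hmgcs1, while Elovl6 (-0.48) and Scd1 (-0.15) had a negative one, and the median was 0.67. Of 10 tested clock genes 7 had a positive one, with a median of 0.40. None passed in either list, and 5 in each had an unadjusted permutation p under 0.05. The part of acute phase, fasting, fed-state, clock and macrophage genes in the joint variation was not tested. Of the markers of adrenal cortex, a tissue that uses much cholesterol, Cyp11a1, Cyp11b1 and Hsd3b1 had at most 2 counts in a library. Of the 2 tested ones, Cyp21a1 had 2 to 247 counts and passed with Hmgcs1 (r = 0.85), while Star had 39 to 115 counts and r = -0.36.

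**Figure D4:**
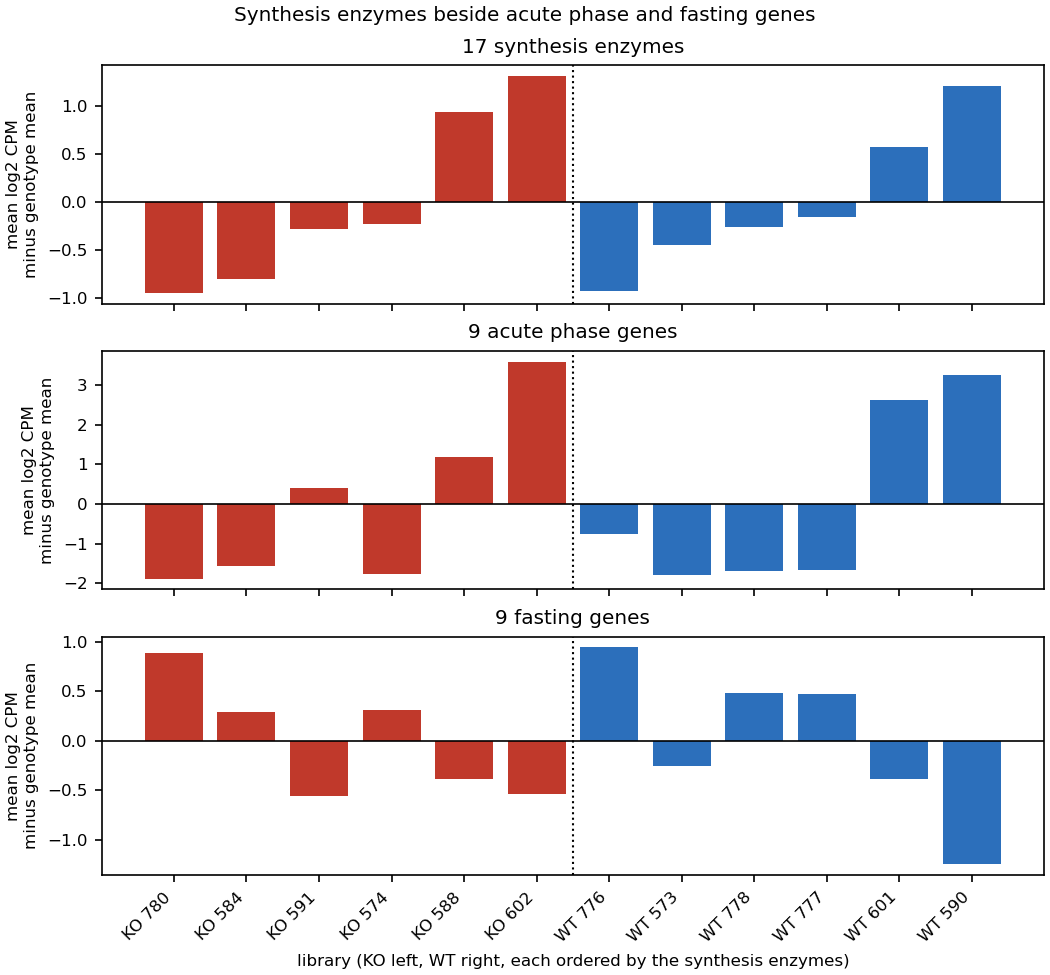
Bars give the mean log2 CPM of a gene list in 1 library minus the mean of its genotype, for 17 synthesis enzymes, 9 acute phase genes and 9 fasting genes, with KO libraries left and WT libraries right, each ordered by the synthesis enzymes. The rightmost pair of each genotype (KO 588 and KO 602, WT 601 and WT 590) is high in the upper and middle panels and below 0 in the lower one.

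The promoters of the members were read for letters known from SREBP2 targets, because these genes moved together. RefSeq windows of the GRCm38.p6 build, from 250 bases before to 50 after a transcript start, were found for 22 of the 28 genes. Windows for Fdps, Fdft1, Sqle, Stard4, Npc1 and Soat2 were not used here. The CCAAT box, to which NF-Y binds, was searched as CCAAT on both strands. It was in the windows of 20 of the 22 members and of all 14 synthesis enzymes with a window, against 41.1% of 27025 genes with a window and 42.7% of 9968 tested ones. Acat2 and Scap lacked it. The Sp1 box, searched as GGGCGG on both strands, was in 20 of 22 members, 66.5% of tested genes and 38.2% of all genes. Pmvk and Ggps1 lacked it.

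The core of the sterol regulatory element, searched as TCACNCCAC on both strands, was in 1 of the 22 members, Hmgcs1, and in 1.44% of all genes. The shorter CACNCCAC, which that motif contains, was in 3 members (Hmgcs1, Acat2 and Insig1) and in 7.12% of all genes. The stretch of Hmgcs1 is shown first, with the element in capitals, and lies at chr13:119690204-119690233 on the plus strand. Its element begins 137 bases before the start.
Hmgcs1: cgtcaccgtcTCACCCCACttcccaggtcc

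The CCAAT boxes nearest to the start are shown for Hmgcs1, for 3 enzymes that followed it closely, for Hsd17b7, which differed between genotypes, and for Insig2, which was low in the livers with the highest Hmgcs1. Each is written 5′ to 3′ in the direction of the gene, and capitals mark CCAAT or, where the box is on the other strand, ATTGG. They lie at chr13:119690349-119690378 (Hmgcs1, plus), chr5:114444243-114444272 (Mvk, plus), chr13:8885580-8885609 (Idi1, plus), chr5:4104709-4104738 (Cyp51, minus), chr1:169969200-169969229 (Hsd17b7, minus) and chr1:121332601-121332630 (Insig2, minus).
Hmgcs1: ctgagtcccgggATTGGcagaggtagccgc
Mvk: tccagctctctgATTGGcctcaggaagaca
Idi1: gtccaaggtgccATTGGctggcgaccgaca
Cyp51: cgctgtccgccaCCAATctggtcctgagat
Hsd17b7: ggccgagccttgATTGGtcgaggtgcgcgt
Insig2: tcaccttccacaCCAATctatattaaaatg

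The letters did not divide the members as their levels did. Mvk held 5 CCAAT boxes, Hmgcs1 and Nsdhl 4 and Cyp51 1. Hsd17b7 and Insig2 held 3 each, although neither passed with a positive correlation. A match is a description of these letters and not a binding site. No match says only that the letters are not in the window.

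The comparison of KO with WT livers then asked which of the 28 genes differ when A1cf is missing. Npc1, the lysosomal membrane protein that releases cholesterol from endocytosed lipoproteins, was higher and Hsd17b7 was lower. These were 2 of the 28 genes (1 higher, 1 lower), while 3.82% of all tested genes passed (1.72% higher and 2.09% lower). In all, 5 of the 28 had an unadjusted p under 0.05 (21.2% of all genes did), and the groups of 1 did not overlap (3.30% of all genes).

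Npc1 (chromosome 18, 12189693 to 12236400, minus strand, mm10) stood at 168, 176, 182, 183, 231 and 247 CPM in KO livers 584, 588, 591, 602, 780 and 574. In WT livers 776, 573, 601, 590, 777 and 778 it stood at 131, 143, 145, 154, 160 and 161 CPM. Every KO liver lay above every WT liver, with KO 574 and KO 780 well above the rest. The means were 198 ± 33 CPM in KO livers and 149 ± 11 CPM in WT livers (SD, n = 6 each). The log2 change was 0.41 with a standard error of 0.11 (adjusted p = 0.048 by edgeR's quasi-likelihood test). The call is close to the threshold. It was kept without KO 584 and lost without any of the other 11 libraries in turn (adjusted p of 0.056 to 0.095 in the same test), with a log2 change of 0.33 to 0.45 throughout.

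Hsd17b7 (chromosome 1, 169949535 to 169969241, minus strand, mm10) stood at 17.96, 30.2, 30.3, 30.5, 31.2 and 40.4 CPM in KO livers 591, 780, 584, 588, 574 and 602. In WT livers 573, 601, 776, 778, 777 and 590 it stood at 39.3, 43.0, 50.6, 52.0, 54.3 and 68.6 CPM. All KO livers lay below all WT livers, except that KO 602 stood just above WT 573. The means were 30.1 ± 7.1 CPM in KO livers and 51.3 ± 10.2 CPM in WT livers (SD, n = 6 each). The log2 change was -0.77 with a standard error of 0.17 (adjusted p = 0.024 by edgeR's quasi-likelihood test). The call was lost without WT 777 (adjusted p = 0.059), WT 778 (0.053), KO 574 (0.0503) or KO 588 (0.0506), with a log2 change of -0.87 to -0.66 over all 12 such fits.

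Among the remaining synthesis enzymes none passed. All 17 had a log2 change below 0, with a median of -0.40 and a range of -0.79 (Idi1) to -0.08 (Ebp), while 48.2% of all tested genes were below 0 and the median over all genes was 0.01. Because these genes vary together, their shared sign is not 17 separate observations. Idi1 (-0.79 with a standard error of 0.76), Mvd (-0.62 and 0.71), Cyp51 (-0.60 and 0.67) and Sqle (-0.49 and 0.81) had large errors beside their changes.

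This median depended on single libraries. It was -0.06 without WT 590, with 11 of 17 enzymes below 0, and -0.87 without KO 602 and -0.62 without KO 588. The numbers of the libraries fall into a range of 573 to 602 (5 KO and 3 WT libraries) and a range of 776 to 780 (1 KO and 3 WT libraries), whose meaning the labels do not give. With the number range as a covariate the median of the 17 enzymes was -0.74. In the 573 to 602 range alone it was -0.74 as well, with all 17 below 0 in each fit. Within the ranges the difference in mean log2 CPM was -1.10 and -1.06 for Hmgcs1, -1.10 and -2.26 for Sqle, -0.74 and -0.79 for Hsd17b7, and 0.36 and 0.62 for Npc1.

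The enzymes with a narrow spread came next to the threshold. Sc5d stood at 109 to 191 CPM in KO livers, with a median of 143, and at 152 to 355 CPM in WT livers, with a median of 197. Its log2 change was -0.54 with a standard error of 0.20 (adjusted p = 0.14 in the edgeR test). Tm7sf2 stood at 40.8 to 78.6 CPM in KO livers, with a median of 62.1, and at 66.1 to 88.0 CPM in WT livers, with a median of 81.7. Its log2 change was -0.37 with a standard error of 0.14 (adjusted p = 0.147 in the edgeR test). In both genes the upper KO livers overlapped the lower WT livers. Ebp had the smallest difference, at 162 ± 17 CPM in KO livers and 171 ± 17 CPM in WT livers (SD, n = 6 each; log2 change -0.08, standard error 0.09).

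The other enzymes had log2 changes of -0.49 (Nsdhl), -0.40 (Msmo1), -0.37 (Fdft1), -0.29 (Dhcr7), -0.21 (Mvk), -0.18 (Lss), -0.15 (Fdps) and -0.11 (Pmvk). Their standard errors were 0.30 (Pmvk) to 0.83 (Fdps), in each case larger than the change, so that changes of either sign are within the error. Acat2 had -0.30 and Ggps1 0.15, and neither passed.

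The 4 control genes all had a log2 change below 0. By edgeR 0 of them passed, with 1 at an unadjusted p under 0.05 (Srebf2), and DESeq2 and limma-voom called 0. Over all tested genes 21.2% had an unadjusted edgeR p under 0.05. Srebf2 stood at 24.1, 29.1, 30.2, 37.4, 46.0 and 58.1 CPM in KO livers 584, 780, 591, 574, 588 and 602. In WT livers 778, 776, 573, 777, 601 and 590 it stood at 41.9, 42.5, 43.7, 49.5, 65.3 and 72.7 CPM. In KO, 4 livers lay below every WT liver, and KO 588 and KO 602 lay among the WT livers. Its log2 change was -0.49 with a standard error of 0.22 (adjusted p = 0.22 by edgeR's quasi-likelihood test). Insig1 had -0.11, Insig2 -0.23 and Scap -0.18.

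The transport genes had the opposite balance, with 1 of 5 below 0 and a median of 0.11. Beside Npc1, its lysosomal partner Npc2 had 0.08, at 49.6 to 96.1 CPM in KO livers and 57.9 to 84.9 CPM in WT livers. Mylip had 0.30, Stard4 0.11 and Soat2 -0.30, with adjusted p-values of 0.38, 0.90 and 0.38 in the edgeR test.

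**Figure D5:**
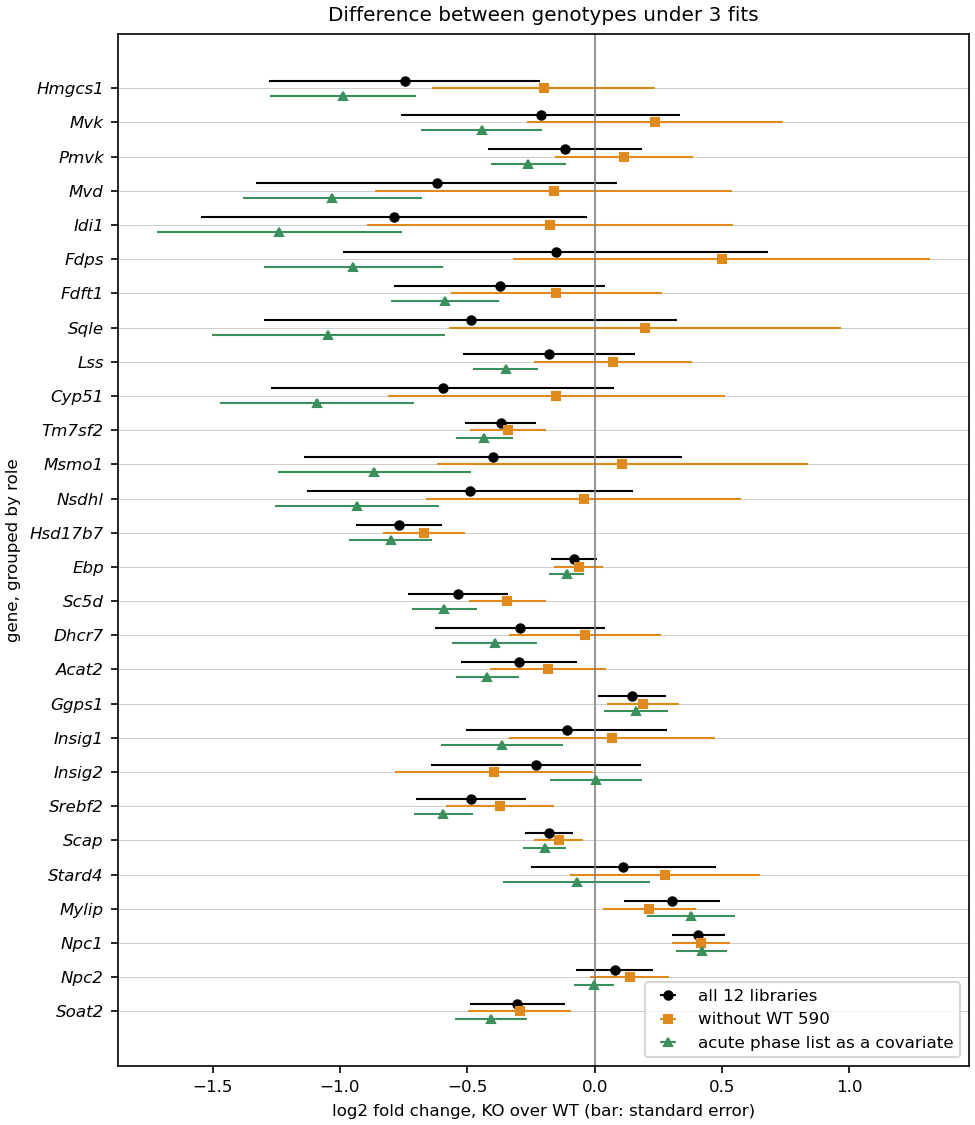
Points give the log2 change of KO over WT with its standard error for the 28 genes, with all 12 libraries (black), without WT 590 (orange) and with the level of the acute phase list as a covariate (green). Sqle, Msmo1, Mvk, Fdps, Lss, Pmvk and Insig1 change sign without WT 590 while Npc1, Hsd17b7, Tm7sf2 and Scap barely move, and with the covariate the enzymes lie lower with smaller errors.

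Since acute phase levels marked the livers high in synthesis enzymes, the genotypes were compared again with the mean log2 CPM of the acute phase list as a covariate, a fit chosen after the data were seen. In this fit 4 members were lower, namely Hsd17b7 (log2 change -0.80, adjusted p = 0.014), Srebf2 (-0.59, 0.0093), Sc5d (-0.59, 0.016) and Tm7sf2 (-0.43, 0.036), all by edgeR's quasi-likelihood test. Npc1 was higher (0.42, adjusted p = 0.025 in the same test). The share of all genes called was 6.92%, against 3.82% without the covariate. The median of the 17 enzymes was -0.80. Hmgcs1 (-0.99) did not pass, with an adjusted p of 0.066 in the edgeR test.

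Leaving out the 4 livers highest in acute phase genes (KO 588, KO 602, WT 590 and WT 601), also chosen after the data were seen, left 4 libraries of each genotype. Those 4 livers also had the highest Hmgcs1 levels of their genotypes, so leaving them out removed its top values. Hsd17b7 (-0.84, adjusted p = 0.046) and Hmgcs1 (-0.91, 0.042) were then lower by the edgeR test, with 2.02% of all genes called. The call of Hmgcs1 cannot be told apart from this choice of livers. Npc1 had 0.47 and did not pass (adjusted p = 0.10 in the same test). With the number range as a covariate, 3 members were lower (Hsd17b7, Sc5d at -0.72 and Tm7sf2 at -0.52), Npc1 was higher, and 4.99% of all genes were called.

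In the 4 pathway lists around the 28 genes, of 10, 14, 8 and 9 tested genes, 2 genes passed, while 3.82% of all tested genes did. Nus1, a subunit of the prenyltransferase that makes dolichol precursors from farnesyl diphosphate, stood at 42.0 to 48.4 CPM in KO livers and at 53.2 to 64.2 CPM in WT livers. The groups did not overlap, and Nus1 fell by 0.42 on the log2 scale (standard error 0.06, adjusted p = 0.0034 by edgeR's quasi-likelihood test). It was the only one of 8 isoprenoid branch genes to pass. Rdh11, a retinol dehydrogenase, stood at 9.21 to 15.3 CPM in KO livers and 15.2 to 33.2 CPM in WT livers. It fell by 0.78 (standard error 0.19, adjusted p = 0.043 in the edgeR test) and was 1 of 9 tested sterol-linked genes to pass. The call of Rdh11 was lost without WT 573, WT 601, WT 778, KO 574, KO 584, KO 591 or KO 780 (adjusted p of 0.062 to 0.090 in the edgeR test) and with no low-count filter (0.079). In the 573 to 602 range alone both Nus1 and Rdh11 missed (adjusted p of 0.085 and 0.105 in the edgeR test).

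Over all tested genes 21.2% had an unadjusted edgeR p under 0.05, and DESeq2 called 8.55%. Of the 10 sensing and processing genes 0 passed in edgeR, with 2 at an unadjusted p under 0.05 and 2 called by DESeq2. Of the 14 export, uptake and storage genes 0 passed in edgeR, with 4 at an unadjusted p under 0.05 and 1 called by DESeq2. The one nearest to passing was Soat1, the cholesterol acyltransferase of macrophages among other cells, at 2.87 to 5.45 CPM in KO livers and 2.02 to 3.43 CPM in WT livers (log2 change 0.64, adjusted p = 0.075 in the edgeR test). The Kupffer cell and macrophage markers had a median log2 change of 0.69, and their part in the difference of Soat1 was not tested.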

How the data were processed

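Liver RNA libraries (TruSeq from total RNA, per the labels' protocols) were grouped by the genotype in the labels, 6 KO and 6 WT. The deposited table holds raw fragment counts by gene name. The authors ran featureCounts 1.5.0-p2 with no strand option, per the file headers, and deposited another value, the exonic length. STAR, DESeq2 and mm10 are given in the submitters' processing notes. Without strand, reads of overlapping genes on opposite strands cannot be told apart.

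Counts were filtered with filterByExpr (minimum count 10), scaled by TMM and tested with the robust quasi-likelihood test of edgeR 4.0.16 (R 4.3.3, limma 3.58.1) with genotype as the only term, adjusted by Benjamini-Hochberg over 13706 genes, with a threshold of 0.05. "Higher", "lower" and "fell" with an adjusted p refer to that threshold. CPM are counts relative to the TMM-scaled library size, and log2 CPM used a prior count of 2. Joint variation was the correlation with Hmgcs1 after centring on genotype, with 100000 permutations within genotypes. Precision is limited by the depths given above, and the lowest count of a member in a library was 22. Alternatives were RLE size factors, library totals, no filter, a mean of 1 CPM, DESeq2 1.42.0, limma-voom, number range, single libraries left out, and for joint variation Sqle as yardstick, no centring and Spearman's rho. The steps were tested on simulated data. Of planted 1.5-fold changes between genotypes 41.7% were recovered, and of 2-fold changes 71.4%, so smaller differences can be missed. For joint variation 96.5% of planted genes were recovered. There the remaining genes were drawn independently of each other, unlike the jointly varying genes here. Promoter windows are RefSeq, GRCm38.p6.

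The 28 members and all lists were chosen with earlier results of these data known. Genes outside the members were named by rule: list genes past the threshold, otherwise the 1 with the smallest p, and the 10 largest and 3 most negative correlations with Hmgcs1 among named genes of at least 1 CPM. Some genes that this rule took are not reported here. Srebf1, Tmem97 and Mmab were named after their values were seen.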

Additional observations from a re-analysis of the deposited data

Results flagged for a closer look

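One library stood far from its group. Hsd17b7 in KO 591, at 17.96 CPM, lay below the other 5 KO livers (30.2 to 40.4 CPM), with a gap of 0.6417 of the group's whole range on the log2 scale, above Dixon's critical value of 0.625 for 6 samples. In all, 56 groups of 6 (28 genes in each genotype) were looked at and 1 was flagged, while chance flags about 1 in 20. Without KO 591 Hsd17b7 remained called lower.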

How the results depend on the processing

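No paired analysis was possible because the genotypes share no library number. With 12 single libraries left out in turn, the count of members higher in KO was 0 to 1 and of members lower 0 to 1, genes called were 116 to 313 higher and 150 to 325 lower, and members passing with Hmgcs1 were 0 to 16 positive and 0 to 1 negative. Over all genes those passing with Hmgcs1 were 0 to 326 positive and 0 to 213 negative. Members higher were 0 without the low-count filter, in the 573 to 602 range alone and without the 4 livers highest in acute phase genes. Members lower were 3 with the number range as a covariate, 0 in the 573 to 602 range, 4 with the acute phase covariate and 2 without the 4 livers. Genes called higher (236) were 548 in DESeq2, 25 in the 573 to 602 range, 402 with the acute phase covariate and 127 without the 4 livers, and genes called lower (287) were 139 with library totals, 624 in DESeq2, 32 in that range, 547 with that covariate and 151 without the 4 livers. Spearman's rho passed 5 members with a positive value, and 9 of all genes. Sqle as yardstick gave 1 negative member (Insig2), and the shorter sterol element was in 3 members. The libraries fell into separate sets for Insig2, so its call over all 12 is not read as a graded relation.

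Signs turned only for genes without a call. Over the 12 fits with a library left out, log2 changes ran from -0.61 to 0.24 for Mvk, -0.29 to 0.11 for Pmvk, -1.17 to 0.50 for Fdps, -1.11 to 0.20 for Sqle, -0.42 to 0.071 for Lss, -0.87 to 0.11 for Msmo1 and -0.36 to 0.068 for Insig1, in each the lowest without KO 602 and the highest without WT 590. They ran from -0.064 to 0.29 for Stard4 and from -0.013 to 0.17 for Npc2, the lowest without KO 602 and the highest without KO 780. With the number range as a covariate, in the 573 to 602 range alone and with the acute phase covariate, Insig2 had 0.18, 0.31 and 0.0061, Stard4 -0.30, -0.035 and -0.071, and Npc2 -0.085, -0.0042 and -0.0035. Stard4 had -0.063 without the 4 livers. The correlation of Npc1 with Hmgcs1 was 0.27 as rho and ran from -0.21 to 0.098 with a library left out. The causes were not tested. Npc1 and Hsd17b7 kept their calls with RLE, library totals, a mean of 1 CPM, DESeq2, limma-voom and both covariates. Both missed in the 573 to 602 range (8 libraries), where each adjusted p was 0.25.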
